A study of Mus musculus with 10 samples.

Results

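The chaperone genes were the genes of the expression table whose symbols name a heat shock protein (Hspa, Hspb, Hsp90, Hsph1, Hspd1 and Hspe1), a J-domain protein (Dnaja, Dnajb and Dnajc) or a subunit of the cytosolic chaperonin (Cct and Tcp1). This rule on names found 83 of 21959 genes, among them 14 genes of the HSP70 family, 3 of the HSP90 family, 8 small heat shock proteins, 2 genes of the mitochondrial chaperonin, 10 genes of the CCT chaperonin, 4 DNAJA, 13 DNAJB and 28 DNAJC proteins. The rule also takes in chaperones outside the cytosol, such as Hspa5, Hsp90b1, Hspa9 and Hspd1. The RNA came from subcutaneous tumors that female BALB/c mice, obtained at 5 to 6 weeks of age, grew from injected 4T1 cells, which are mouse mammary carcinoma cells and serve to model triple-negative disease. The mice of the exercise group (E, 5 tumors) ran voluntarily without limits on speed or distance for 21 days, and those of the non-exercise group (NE, 5 tumors) were kept under normal husbandry. All 10 mice carried the same graft and none was given a drug, so that the groups differed by the running alone as far as the methods state. The question was which tumor genes differ after voluntary running.

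Chaperones bind unfolded or partly folded proteins. HSP70 proteins do so in cycles of ATP hydrolysis that J-domain proteins start and nucleotide exchange factors end, HSP90 proteins take over clients such as kinases and steroid receptors, and the chaperonins enclose a client in a barrel. Under heat or other damage to proteins, heat shock factor 1 binds repeats of the bases GAA and TTC in promoters and raises the inducible members, while the constitutive members serve protein synthesis in unstressed cells. Many tumors keep high chaperone levels.

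The count table held 15045613 to 20646763 reads a tumor in E and 18706032 to 23092251 in NE, so that the libraries of E were on average shallower. The replicates are separate mice. A filter on low counts left 13517 genes for the test, among them 73 chaperone genes. The 6 epithelial markers of a mammary tumor summed to 20.4 to 29.5 CPM (reads scaled to the total of the library) in E and 25.8 to 48.3 CPM in NE. Of these, Krt8, Krt18, Epcam and Cldn7 had no more than 27, 48, 66 and 28 reads in any tumor, while Krt19 had 157 to 498 and Cdh1 144 to 434. Genes of skeletal muscle differed most between the tumor pieces, from a summed level of 3.73 CPM in NE1 to 29214 CPM in NE4. Tumor E5 had the highest sum of the fibroblast markers, 15372 CPM, against at most 4947 CPM in NE, and of the neutrophil markers, 287 CPM against at most 46.4 CPM in NE. Of the 6 neutrophil markers tested, 2 were higher in E at an unadjusted p of at most 0.05, S100a8 and S100a9. Over all genes tested, 2.57% were higher at that threshold. In RNA of whole tumors, fewer cells of a type and less RNA per cell cannot be told apart.

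The most abundant chaperone genes were constitutive. Levels are given as normalised FPKM, which are reads scaled to the exon length and to the total of the library, divided by a TMM factor for the composition of the library. They can be compared between genes only roughly. The length used was 6370 bases for Cct3 and 2557 for Cct2, while their longest protein-coding transcripts in the GRCm38 annotation have 1977 and 1959. Hsp90ab1, the constitutive cytosolic HSP90, averaged 1305 over the 10 tumors, followed by Hspa8 (769), the constitutive cytosolic HSP70, Hspa5 (363), the HSP70 of the endoplasmic reticulum, Cct5 (216) and Cct2 (208). Hspd1 was close to Cct2, at 207. The 83 genes together took 1.90, 1.81, 1.69, 1.77 and 1.56% of the counted reads in the tumors E1 to E5, and 1.91, 1.97, 1.97, 1.98 and 1.89% in NE1 to NE5. The share was lowest in E5, and only E1 among the running mice overlapped with NE. Tumor E5 had the lowest depth of all.

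In the comparison of E with NE, no chaperone gene reached both a 2-fold difference and an FDR of 0.05 in edgeR's quasi-likelihood test, and 0% of the 13517 genes tested did. The smallest FDR over all genes was 0.897, so that none of the differences below passes a correction for multiple tests. DESeq2 and limma-trend called no gene either. At an unadjusted p of at most 0.05, 19 of the 73 chaperone genes tested (26.0%) were lower in E and 0 were higher. Of all genes tested, 4.86% passed that threshold, 2.29% as lower and 2.57% as higher in E. The fitted log2 fold change (E minus NE) was negative for 61 of the 73 genes (83.6%), against 54% of all genes tested. Its median over the 73 genes was -0.12, against -0.01 over all genes tested. The values of E all lay below those of NE for 1 chaperone gene (1.37%), Cct6a, against 0.289% of all genes, and all above for 0, against 0.436%.

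The number of 19 changed when single tumors were left out and when depth was added to the model. It was 7 without E5, 10 without NE2, 11 without E2 and 11 without NE3, all lower in E, where 1.22, 1.89, 1.38 and 1.39% of all genes tested were lower at that threshold. With depth (log2 of the total count) in the model it was 2 (Cct4 and Hspd1, both lower), against 0.429% of all genes, while the median log2 fold change was -0.07 and those of Hspa1b, Hspa8 and Dnajb1 were -0.49, -0.19 and -0.13. With a score of skeletal muscle genes (their mean log2(CPM + 1)) as a covariate, 21 chaperone genes were lower and 2 higher in E, against 3.23 and 4.57% of all genes, and the median log2 fold change was -0.12. The libraries of E were on average shallower, so that the model does not fully separate depth from the group. The part of depth, and that of the fibroblast and neutrophil markers in E5, was not tested. The 7 genes Hspa1b, Hspd1, Cct4, Dnaja1, Cct6a, Hspa8 and Dnajb1 had an unadjusted p of at most 0.05 in each of the 10 fits that left out 1 tumor. The share of all genes that did so is not given here, and only Hspd1 and Cct4 among the 7 also passed with depth in the model. The plot of the fitted differences shows 72 of the 73 genes by family.

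**Figure D1:**
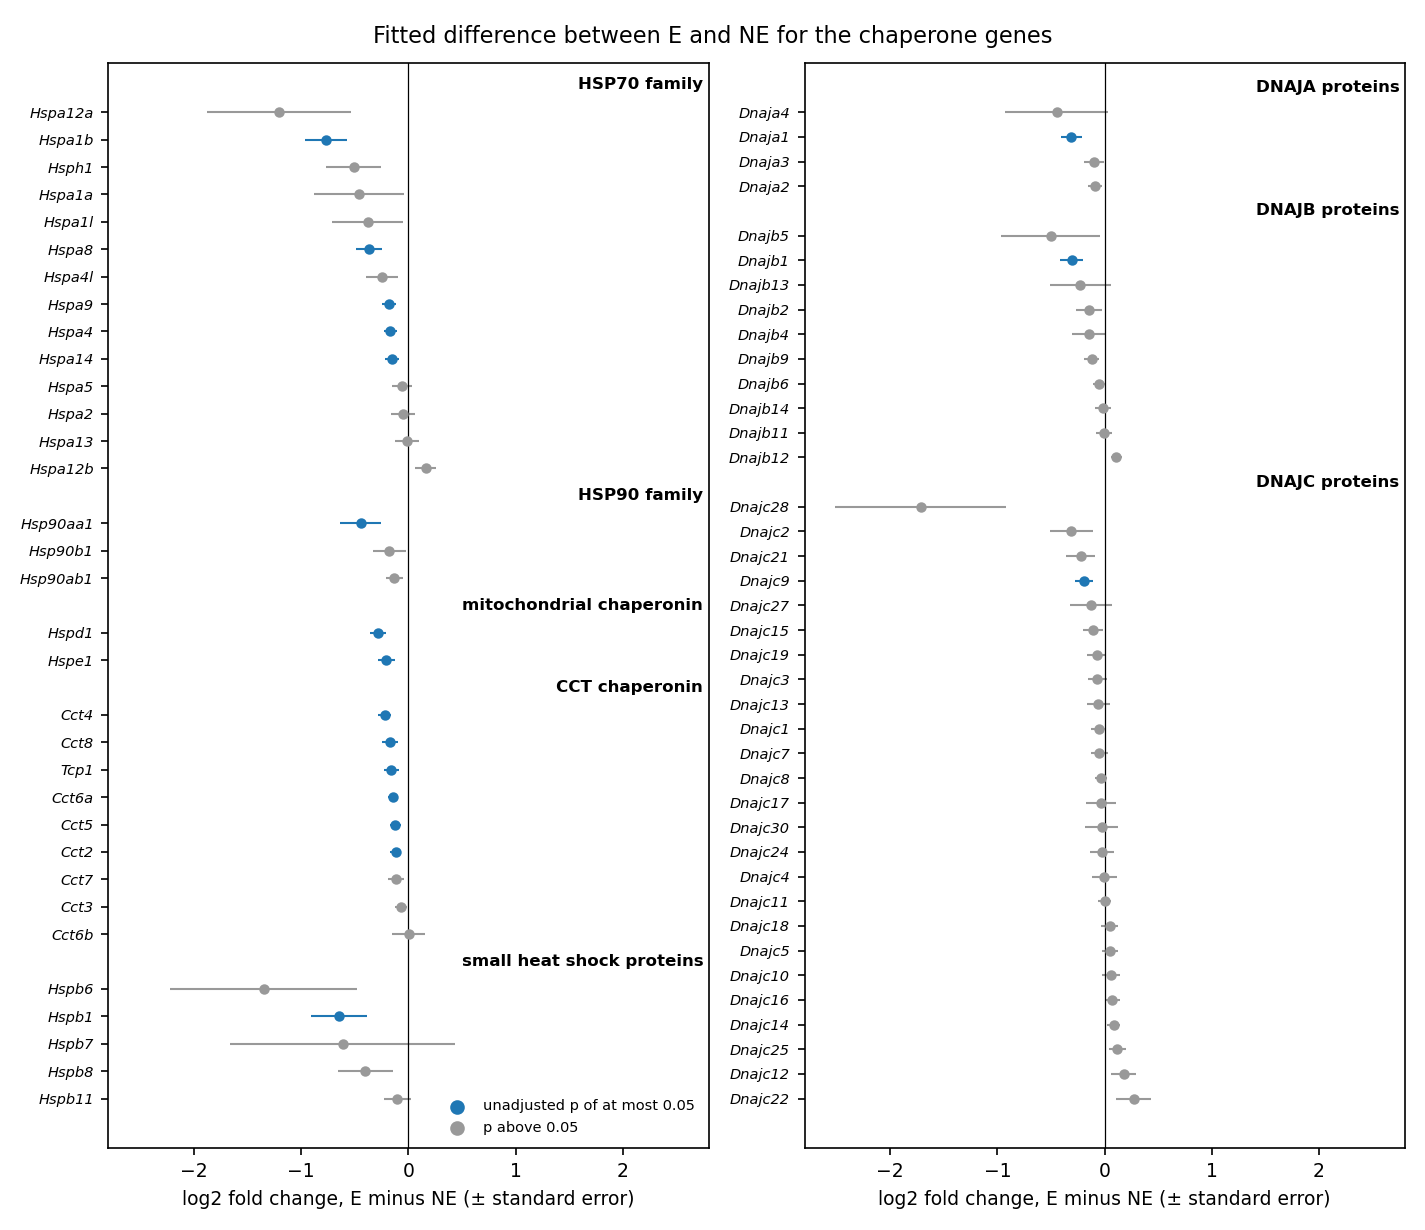
Fitted log2 fold changes (E minus NE, horizontal axis) with standard errors of 72 of the 73 chaperone genes tested, grouped by family, from 5 tumors per group. The 18 genes in blue, with an unadjusted p of at most 0.05, all lie left of 0, and 12 of the 72 genes lie right of it.

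The HSP70 family held the chaperone gene with the smallest p. Hspa1b and Hspa1a encode nearly identical stress-inducible HSP70 proteins from neighboring genes on chromosome 17. Hspa1b was at 4.51, 3.65, 4.66, 3.59 and 3.92 normalised FPKM in E1 to E5 and at 8.52, 4.40, 5.56, 9.27 and 6.95 in NE1 to NE5. It was narrow in E and spread over a wider range in NE, with NE1 and NE4 on top and only NE2 within the range of E. The fitted difference was a log2 fold change of -0.77 ± 0.20 (SE), a level 41.4% lower in E. The p was 0.00251 in edgeR's quasi-likelihood test (FDR = 0.897) and 0.0238 in the exact two-sided permutation test over 5 against 5 tumors, where 0.00794 is the smallest possible value. Hspa1a was lower in level, at 0.73 ± 0.43 (SD, n = 5) in E and 1.003 ± 0.39 in NE, and its groups overlapped (log2 fold change -0.46 ± 0.42 SE, p = 0.299 in edgeR and 0.270 in the exact permutation test). Without NE4 its log2 fold change was -0.22. Of the stretches of 50 bases in the Hspa1b transcripts, 62.3% occur in another gene, mostly in Hspa1a, so that the split of reads between this pair is uncertain.

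The 250 bases upstream of the start sites of both genes are shown to compare the pair and its heat shock element. In the RefSeq promoters of GRCm38.p6 they are chr17:34959239-34959488 for Hspa1b and chr17:34972157-34972406 for Hspa1a, each on the reverse strand and written 5′ to 3′ along the gene. The 2 sequences differ at 3 of 250 bases. The capitals mark the element GAANNTTC, with 2 of the repeats that heat shock factor 1 reads.
Hspa1b: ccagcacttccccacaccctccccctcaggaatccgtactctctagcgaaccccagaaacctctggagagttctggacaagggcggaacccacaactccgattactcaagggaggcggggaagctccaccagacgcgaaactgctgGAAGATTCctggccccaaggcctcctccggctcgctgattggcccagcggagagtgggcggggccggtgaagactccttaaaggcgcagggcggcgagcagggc
Hspa1a: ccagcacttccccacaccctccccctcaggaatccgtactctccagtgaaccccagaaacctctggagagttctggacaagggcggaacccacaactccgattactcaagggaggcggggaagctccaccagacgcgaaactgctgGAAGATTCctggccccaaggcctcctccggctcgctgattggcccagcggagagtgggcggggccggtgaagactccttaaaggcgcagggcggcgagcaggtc

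Hspa8, which folds new proteins and strips clathrin from vesicles, was at 807, 729, 601, 687 and 530 normalised FPKM in E1 to E5 and at 815, 806, 848, 1081 and 782 in NE1 to NE5. NE4 stood above all other tumors, and only E1 reached into the range of NE. The log2 fold change was -0.37 ± 0.12 (SE), p = 0.0134 in edgeR's quasi-likelihood test and 0.0238 in the exact permutation test, and it was -0.28 without NE4. For Hspa8, 74.8% of the stretches of 50 bases occur in other genes, 13 in number and led by Gm15459, so that its count is uncertain. Hspa1b amounted to 0.619 ± 0.129% (SD, n = 5) of the level of Hspa8 in E and 0.799 ± 0.198% in NE, a difference within the spread (exact two-sided permutation test, p = 0.151, adjusted 0.302 over 2 ratios chosen after the values were seen).

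Hsph1 is a relative of HSP70 that exchanges its nucleotide and helps to dissolve aggregates. It varied widely, at 41.1, 30.3, 16.03, 24.3 and 18.8 normalised FPKM in E1 to E5 and 33.9, 35.3, 37.8, 52.4 and 27.0 in NE1 to NE5. E1 was the highest but for NE4, E3 and E5 were the lowest, and the difference did not pass the unadjusted threshold (log2 fold change -0.51 ± 0.26 SE, p = 0.0729 in edgeR and 0.0952 in the exact permutation test). It was -0.36 without NE4 and -0.26 with depth in the model. Downstream of both of its RefSeq start sites lies a heat shock element with 3 repeats, shown because few promoters hold one. The stretch is chr5:149636280-149636308 on the reverse strand, with the element in capitals.
Hsph1: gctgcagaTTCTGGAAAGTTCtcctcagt

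The other HSP70 genes differed less. Hspa4, also an exchange factor, was at 72.6 ± 3.26 (SD, n = 5) normalised FPKM in E and 81.7 ± 5.91 in NE (log2 fold change -0.17). Hspa9, the HSP70 of the mitochondrial matrix, was at 107 ± 9.04 and 121 ± 6.13 (-0.18). Hspa14, which works at the ribosome, was at 13.4 ± 0.752 and 14.9 ± 0.969 (-0.15). These 3 genes had p of 0.0200, 0.0234 and 0.0323 in edgeR's quasi-likelihood test and of 0.0317, 0.0238 and 0.0238 in the exact permutation test, and each had E tumors within the range of NE. Hspa5, at 355 ± 39.0 in E and 371 ± 38.0 in NE, showed no difference beyond its spread (-0.06 ± 0.09 SE, p = 0.515 in edgeR and 0.548 in the exact permutation test). Hspa12a, a distant relative, was at 2.21 in NE4 and between 0.125 and 0.656 in the other 9 tumors (-1.21 ± 0.67 SE, exact permutation p = 0.524, and -0.16 without NE4). Of the 14 genes of the family, all tested, 13 had a negative log2 fold change and 5 were lower in E at an unadjusted p of at most 0.05. The shares over all genes tested were 54% and 2.29%.

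A heat shock set of 11 genes held Hspa1a, Hspa1b, Hsph1, Hsp90aa1, Dnajb1, Dnaja1, Hspb1, Hspd1 and Hspe1, whose levels rise under heat, and the constitutive Hspa8 and Hsp90ab1. All 11 had a negative log2 fold change, and 8 had an unadjusted p of at most 0.05 and were lower in E. Over all genes tested, the shares were 54% and 2.29%.

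**Figure D2:**
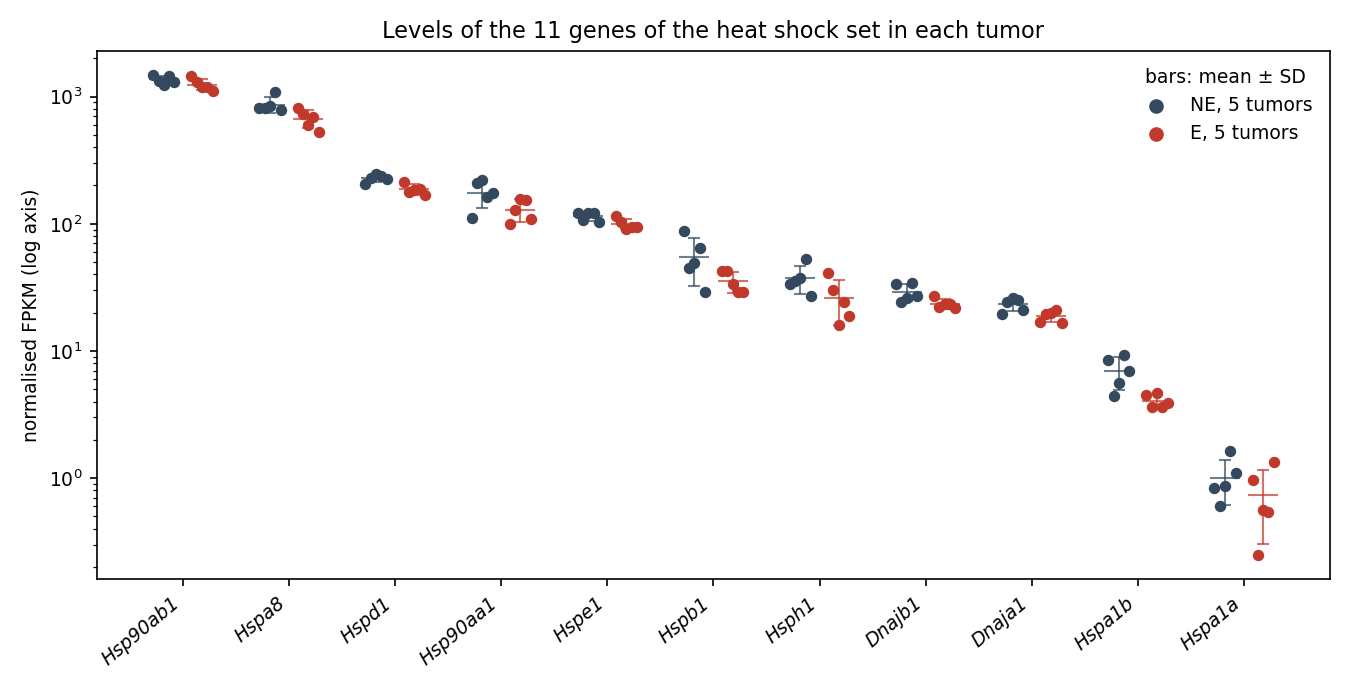
Normalised FPKM (vertical log axis) of 11 genes, the inducible ones with their constitutive partners Hspa8 and Hsp90ab1, in each of the 5 NE and 5 E tumors, with the mean and SD as bars. The means of all 11 genes are lower in E, and points of the groups overlap for each gene, for Hspa1b only through NE2.

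Of the 3 HSP90 genes, the inducible Hsp90aa1 differed most. It was at 98.9, 127, 157, 154 and 109 normalised FPKM in E1 to E5 and at 112, 210, 220, 163 and 175 in NE1 to NE5. NE1 lay among the E tumors, and the other NE tumors lay above all of E. The log2 fold change was -0.45 ± 0.19 (SE, p = 0.0403 in edgeR's quasi-likelihood test and 0.0794 in the exact permutation test). The constitutive Hsp90ab1 was at 1245 ± 126 (SD, n = 5) in E and 1364 ± 98.8 in NE (log2 fold change -0.13 ± 0.08 SE, p = 0.114 in edgeR and 0.127 in the exact permutation test). Hsp90aa1 amounted to 10.5 ± 2.60% of the level of Hsp90ab1 in E and 13.1 ± 3.93% in NE, a difference within the spread (exact permutation test, p = 0.302). Hsp90b1, the HSP90 of the endoplasmic reticulum, was at 152 ± 22.3 and 172 ± 37.1 (-0.18, p = 0.287 in edgeR and 0.389 in the exact permutation test). Other genes hold 58.5% of the stretches of 50 bases of Hsp90aa1.

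The mitochondrial chaperonin consists of a barrel, encoded by Hspd1, and a lid, encoded by Hspe1, whose genes lie head to head on chromosome 1. Hspd1 was at 215, 179, 186, 187 and 168 normalised FPKM in E1 to E5 and at 204, 228, 245, 236 and 225 in NE1 to NE5. Only the pair of E1 and NE1 broke the order of the groups. The log2 fold change of -0.28 ± 0.07 (SE, p = 0.00317, edgeR's quasi-likelihood test) corresponds to a level 17.9% lower in E, with p = 0.0159 in the exact permutation test. Hspe1 was at 115, 103, 91.7, 94.7 and 94.9 in E1 to E5 and at 121, 106, 122, 122 and 104 in NE1 to NE5. E1 again lay within the range of NE, and the log2 fold change was -0.21 ± 0.08 (SE, p = 0.0237 in edgeR and 0.0317 in the exact permutation test).

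In the GRCm38 annotation Hspd1 spans chr1:55077835-55088243 on the reverse strand and Hspe1 chr1:55088132-55091307 on the forward strand. These gene models overlap at their starts, and without a stated strand of the reads those of the overlap cannot be told apart. Their RefSeq promoter windows share 285 of 300 bases. The 250 bases upstream of Hspe1 (chr1:55087898-55088147, forward strand) are shown because they hold the heat shock element that both genes have between them, in capitals.
Hspe1: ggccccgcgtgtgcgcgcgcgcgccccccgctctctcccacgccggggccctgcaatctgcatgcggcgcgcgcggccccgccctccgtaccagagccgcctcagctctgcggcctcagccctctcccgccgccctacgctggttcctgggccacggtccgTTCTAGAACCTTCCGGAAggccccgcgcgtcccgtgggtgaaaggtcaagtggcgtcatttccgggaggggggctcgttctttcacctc

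The CCT chaperonin is a cytosolic barrel of 8 different subunits that folds actin and tubulin. Of its 9 genes tested, which include the testis subunit Cct6b, 6 were lower in E at an unadjusted p of at most 0.05. Over all genes tested, 2.29% were lower at that threshold. Cct4 was at 74.6, 69.9, 80.5, 78.0 and 67.6 normalised FPKM in E1 to E5 and at 80.0, 90.6, 90.2, 83.3 and 88.2 in NE1 to NE5. Only E3 exceeded an NE tumor, NE1. The log2 fold change of Cct4 was -0.22 ± 0.06 (SE, p = 0.00562, edgeR's quasi-likelihood test) and the exact permutation test gave p = 0.0159. Cct6a was at 112, 107, 115, 110 and 108 in E1 to E5 and at 116, 124, 128, 119 and 123 in NE1 to NE5. It is the gene without overlap, with NE1 just above E3, at a log2 fold change of -0.15 ± 0.05 (SE, p = 0.00996, edgeR; exact permutation p = 0.00794, the smallest possible).

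The other subunits followed at smaller or less certain differences. Cct8 (94.6 ± 8.46 in E and 107 ± 7.47 in NE, mean normalised FPKM ± SD, n = 5), Tcp1 (69.3 ± 5.27 and 77.5 ± 5.87), Cct5 (206 ± 11.8 and 225 ± 7.34) and Cct2 (199 ± 11.5 and 216 ± 4.05) had log2 fold changes of -0.17, -0.16, -0.12 and -0.12. The p in edgeR lay between 0.0388 for Cct2 and 0.0470 for Tcp1, and the exact permutation test gave 0.0238 for Cct2 and Cct5 and 0.0556 for Cct8 and Tcp1. Cct7 and Cct3, at -0.12 and -0.07, missed the threshold (p = 0.136 and 0.251 in edgeR, 0.127 and 0.167 in the exact permutation test), and in both the tumor E1 was far above the other E tumors. The testis gene Cct6b, at 2.58 ± 0.391 and 2.57 ± 0.348, gave 0.00 ± 0.15 (SE). The SD of log2(CPM + 1) over the 10 tumors was 0.16 for Cct6b. The other subunits tested varied less, from 0.08 for Cct3 to 0.15 for Cct4. For Tcp1, 22.2% of the stretches of 50 bases occur in other genes, mostly in Acat3, and for Cct2 and Cct5 none do.

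**Figure D3:**
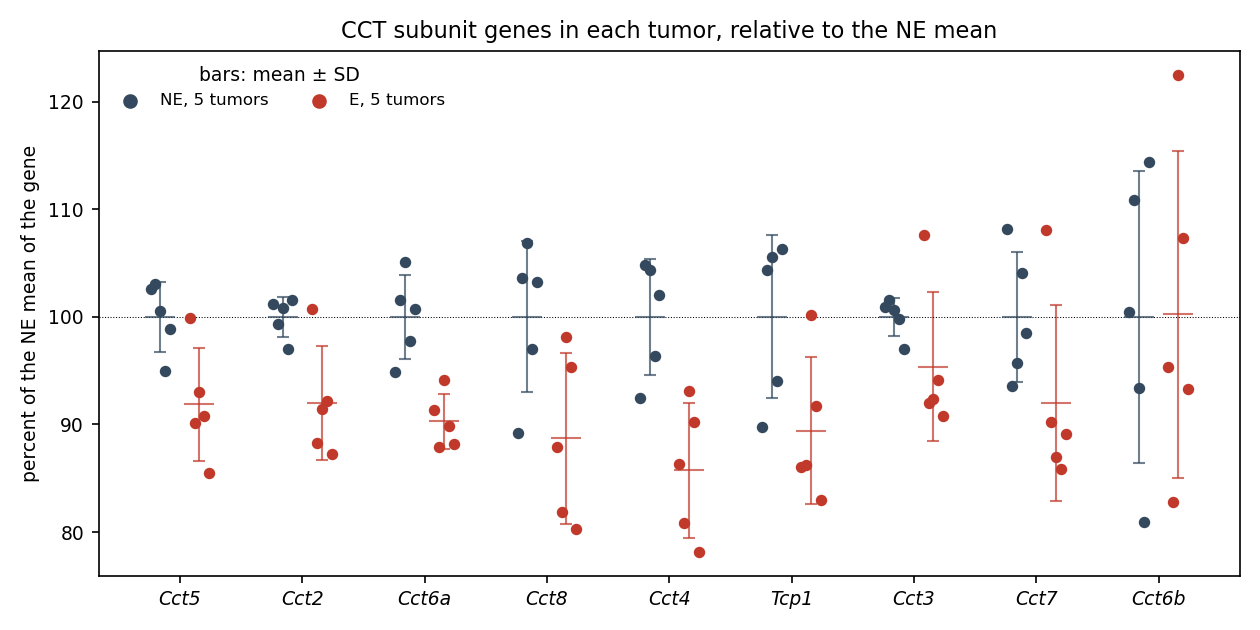
Levels of the 9 CCT genes tested in each tumor as a percent of the mean of the gene in NE (vertical axis), ordered by mean level, with the mean and SD of 5 NE and 5 E tumors as bars. The E points of Cct6a all lie below its NE points, E1 stands above the other E tumors in Cct3 and Cct7, and Cct6b spreads widely in both groups.

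Of the J-domain proteins, which deliver clients to HSP70, 3 of the 39 tested were lower in E at an unadjusted p of at most 0.05. The share of all genes tested was 2.29%. Dnajb1, the inducible partner of HSP70 in dissolving aggregates, was at 27.2, 22.2, 23.4, 23.3 and 21.6 normalised FPKM in E1 to E5 and at 33.7, 24.5, 26.1, 34.1 and 27.2 in NE1 to NE5. The E tumors lay close together but for E1, while NE1 and NE4 stood out in NE. The log2 fold change was -0.31 ± 0.11 (SE, p = 0.0150 in edgeR's quasi-likelihood test and 0.0238 in the exact permutation test). Dnaja1, a general cytosolic partner of HSP70, was at 17.0, 19.5, 19.9, 20.9 and 16.5 in E1 to E5 and at 19.6, 24.4, 26.2, 25.2 and 21.0 in NE1 to NE5 (log2 fold change -0.31 ± 0.10 SE, p = 0.00954 in edgeR and 0.0317 in the exact permutation test). Here NE1 was the lowest NE tumor, below E3 and E4. Dnajc9, which also binds histones, was at 17.8 ± 1.74 (SD, n = 5) and 20.3 ± 1.38 (-0.19, p = 0.0360 in edgeR and 0.0476 in the exact permutation test).

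All 4 DNAJA genes, 9 of 10 DNAJB genes and 16 of 25 DNAJC genes tested had a negative log2 fold change, with medians of -0.21, -0.13 and -0.03. The median of the DNAJC genes thus lay close to that of all genes. A negative value was found for 54% of all genes tested. The gene with the largest positive value was Dnajc22, at 9.65 ± 0.729 in E and 7.99 ± 1.89 in NE (0.27 ± 0.16 SE, p = 0.125 in edgeR and 0.0794 in the exact permutation test), named after its value was seen. The largest spreads of the J-domain proteins belonged to Dnajc28, at 0.0671 to 0.284 normalised FPKM except in NE4 (1.85), to Dnajb5, at 1.49 to 2.77 except in NE4 (9.38), and to Dnaja4, at 0.794 to 1.88 except in NE4 (4.46).

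The small heat shock proteins hold denatured proteins without ATP, and several are at home in muscle. Of the 8, 5 were tested. Hspb1, the inducible and widely expressed member, was at 42.5, 42.3, 33.6, 28.8 and 29.0 normalised FPKM in E1 to E5 and at 88.2, 44.5, 49.4, 64.7 and 28.9 in NE1 to NE5. NE1 and NE4 were high, while NE5 was as low as E4 and E5. The log2 fold change was -0.64 ± 0.26 (SE, p = 0.0327, edgeR's quasi-likelihood test), with p = 0.0794 in the exact permutation test, and it was -0.41 without NE1 and -0.59 without NE4, and in neither fit did it pass the unadjusted threshold. With depth in the model it was -0.31 and did not pass either. Other genes, mainly the copy Hsp25-ps1, hold 51.6% of its stretches of 50 bases. The 250 bases upstream of Hspb1 (chr5:135887669-135887918, forward strand, GRCm38.p6) are shown because they hold the element GAANNTTC at 2 places, in capitals.
Hspb1: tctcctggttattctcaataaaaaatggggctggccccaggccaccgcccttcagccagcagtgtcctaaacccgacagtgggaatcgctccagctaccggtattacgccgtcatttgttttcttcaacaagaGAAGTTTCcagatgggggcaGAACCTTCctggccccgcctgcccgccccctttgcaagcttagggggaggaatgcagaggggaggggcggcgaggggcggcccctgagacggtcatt

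Hspb6 and Hspb7, known from skeletal and heart muscle, varied most of all chaperone genes tested. Hspb7 was at 5.93, 10.2, 1.49, 1.501 and 2.51 normalised FPKM in E1 to E5 and at 0.0919, 4.01, 6.38, 21.9 and 0.737 in NE1 to NE5. Hspb6 was at 6.91, 14.9, 3.66, 5.47 and 3.96 in E1 to E5 and at 4.54, 5.32, 7.74, 68.5 and 2.97 in NE1 to NE5. NE4 was the highest tumor for both genes, E2 came next, and the groups overlapped widely. Their log2 fold changes of -0.61 ± 1.05 and -1.35 ± 0.87 (SE) turned to 0.64 and 0.45 without NE4, and none of these 4 values had an unadjusted p of at most 0.05 in edgeR. Hspb8, which works with Bag3 in autophagy, was at 90.0 in NE4 and between 31.9 and 45.9 in the other 9 tumors.

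These levels followed the skeletal muscle score, the mean log2(CPM + 1) of 12 muscle genes, which was 5.77, 7.18, 3.81, 4.47 and 4.46 in E1 to E5 and 0.33, 5.25, 6.08, 9.81 and 2.82 in NE1 to NE5. Over the 10 tumors, Pearson's r was 0.983 for Hspb7 (Spearman's rho 0.988) and 0.842 for Hspb6 (rho 0.915). With 100000 permutations and adjustment over the 5 genes tested, p was 1e-04 for both coefficients of Hspb7, and 0.00227 and 0.00122 for Hspb6. Without the 2 tumors farthest from the median score, NE1 and NE4, r was 0.979 and 0.958. Without NE4 alone, r of Hspb6 was 0.722 with an adjusted p of 0.0822 (permutation test). Hspb8 had r = 0.694 and rho = 0.588 (adjusted permutation p = 0.0703 and 0.133). Hspb1 had r = 0.034 and rho = 0.285, and r = 0.779 without NE1 and NE4, since NE1 combined the lowest muscle score with the highest Hspb1. Hspb11, a protein of cilia, had r = -0.475 and rho = -0.430 (adjusted permutation p = 0.208 and 0.274). Within the groups, of 5 tumors each, the relation was not tested.

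**Figure D4:**
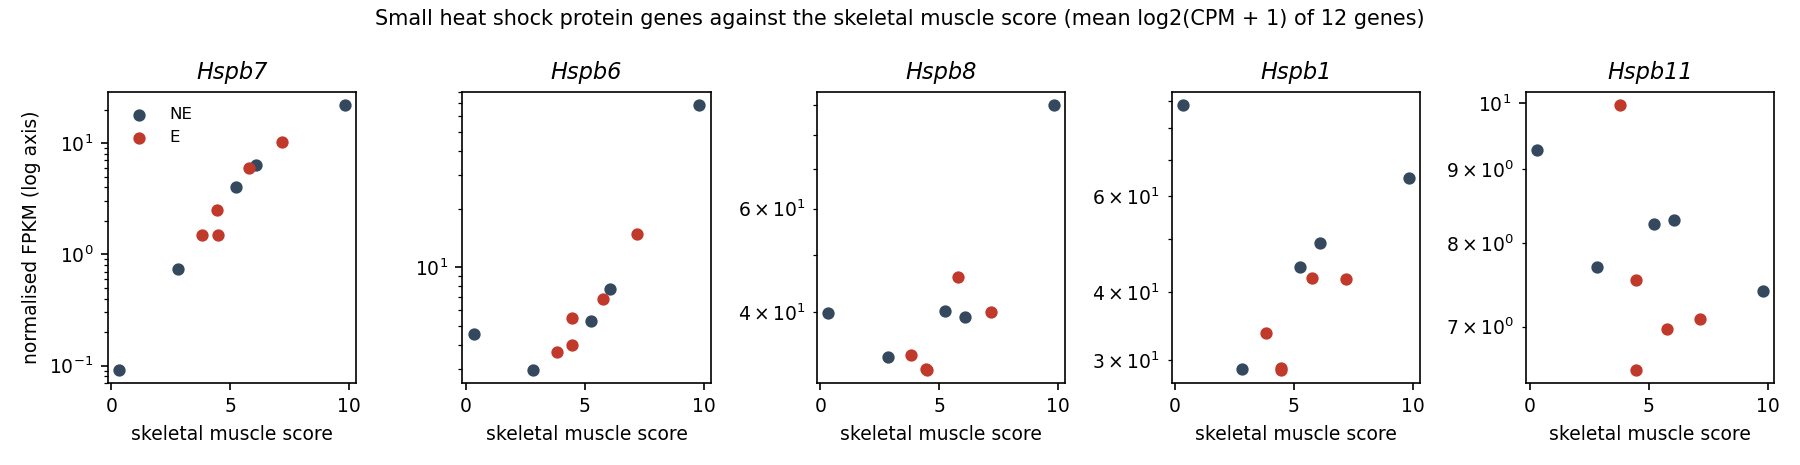
Normalised FPKM (vertical log axes, each panel with its own range) of the 5 small heat shock protein genes tested against the skeletal muscle score (horizontal axis) in 5 NE and 5 E tumors. Hspb7 follows the score over all 10 tumors, Hspb6 broadly does so but for NE1, and Hspb1 is highest in NE1, the tumor with the lowest score of 0.33.

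A further 10 chaperone genes did not pass the filter on low counts. Dnajb8, Dnajc5b and Dnajc5g had 0 reads in all 10 tumors. This allows up to 0.199 CPM, here without the TMM factor, in the shallowest library, the value of 3 reads there. Cct8l1, Dnajb3, Dnajb7, Dnajc6 and Hspb9 had at most 11 reads in any tumor. Hspb2 and Hspb3 reached 36 and 76 reads in NE4, and at most 15 and 8 in E. These floors cover counting error only.

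The genes did not share a single order of the tumors. Hspa8, Hsph1, Dnajb1 and Hspe1 were above their mean over the 10 tumors in E1 and in NE4, and below it in E3, E4 and E5. Dnajb1 and Hspb1 were highest in NE1 and NE4. Hsp90aa1, in contrast, was below its mean in NE1 and E1, by 0.40 and 0.58 on the log2 scale, and highest in NE2 and NE3, 0.51 and 0.57 above it. Hspa4, Cct8, Tcp1 and Dnaja1 were likewise below their mean in E1 and NE1 and above it in NE2 and NE3. E5, the tumor with the lowest depth and the highest fibroblast sum, lay below the mean for all 21 genes of the map of deviations.

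**Figure D5:**
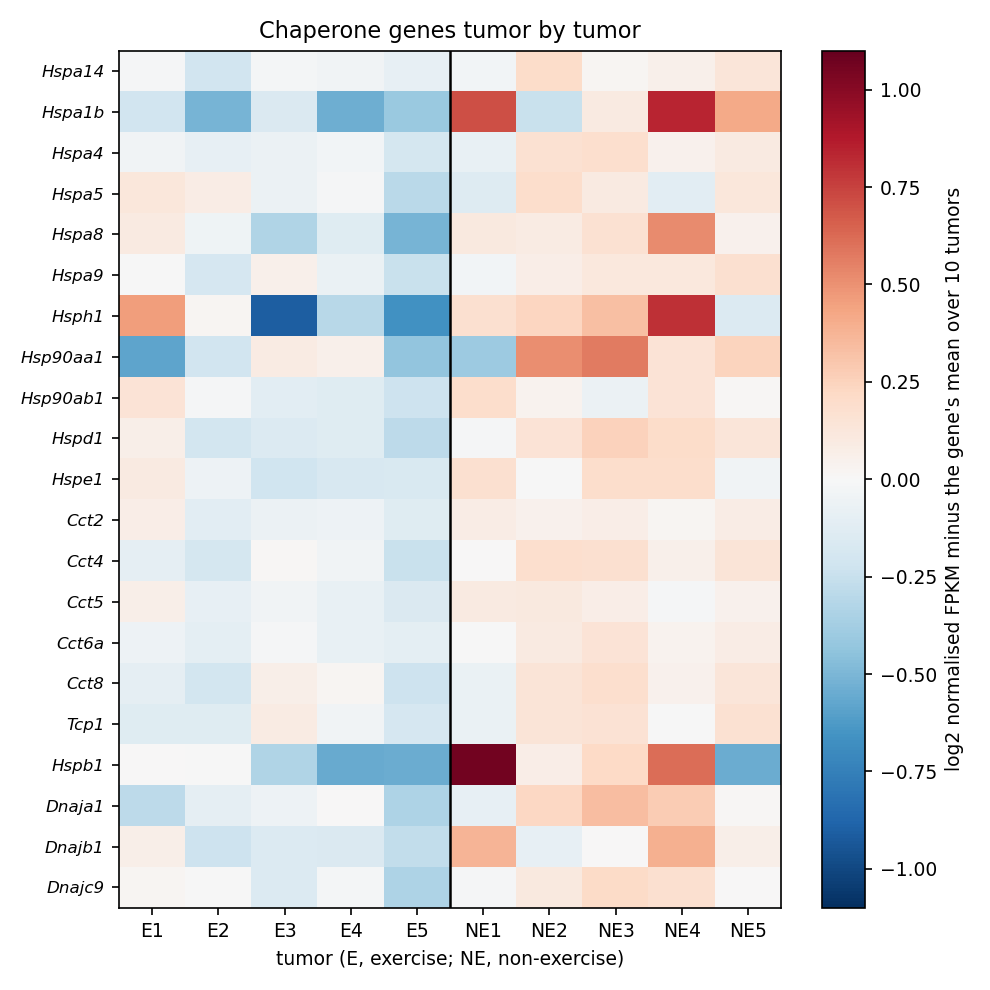
Map of the log2 deviations of normalised FPKM from the mean of each gene over the 10 tumors (color scale), with 5 E tumors left and 5 NE tumors right of the line, for 18 of the 19 genes with an unadjusted p of at most 0.05 and Hspa5, Hsph1 and Hsp90ab1. The column of E5 is blue throughout, Hspb1 is highest in NE1, and Hsp90aa1 is blue in NE1 where Hspb1 and Hspa1b are red.

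The promoters of the chaperone genes were searched on both strands for heat shock elements. Windows from 250 bases before to 50 after a start site were at hand from RefSeq (GRCm38.p6) for 67 of the 83 genes. The windows of Cct4, Dnajc2, Dnajc5, Dnajc5b, Dnajc11, Dnajc12, Dnajc18, Dnajc22, Dnajc30, Hsp90aa1, Hsp90ab1, Hspa8, Hspa9, Hspa13 and Hspb2 were not searched. The element with 3 repeats, GAANNTTCNNGAA, stood in the windows of 4 genes (5.97%), Hspd1, Hspe1, Hsph1 and Dnajb6, against 0.662% of all 27025 genes with a window. An element with 2 repeats, GAANNTTC or TTCNNGAA, which the longer one contains, stood in 20 of the 67 (29.9%) against 17.0% of all genes. The element of endoplasmic reticulum stress, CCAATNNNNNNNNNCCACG, stood in 3 genes (4.48%), Hspa5, Hsp90b1 and Dnajc3, against 0.137% of all genes. The log2 fold changes were -0.28, -0.21, -0.51 and -0.05 for the 4 genes with the longer heat shock element and -0.06, -0.18 and -0.07 for the 3 genes with the stress element. Hspd1 and Hspe1 share 1 site, and a match describes letters, not binding.

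The partners of the chaperones were read from 3 lists. Of 27 heat shock factors and cochaperones, all tested, 6 were lower in E at an unadjusted p of at most 0.05 and 0 were higher. At that threshold, 2.29% of all genes tested were lower and 2.57% higher. The median log2 fold change of the 27 genes was -0.08. The 6 were St13, which stabilises HSP70 in its ADP-bound state, at 28.3 ± 2.65 (SD, n = 5) normalised FPKM in E and 32.9 ± 1.02 in NE, and Cacybp (56.6 ± 8.24 and 74.7 ± 14.8), Chordc1 (12.1 ± 1.36 and 14.7 ± 1.95), Sugt1 (14.6 ± 1.38 and 17.0 ± 1.44), Ppid (26.2 ± 1.19 and 30.3 ± 3.38) and Ptges3 (124 ± 8.21 and 138 ± 9.87). Chordc1, Sugt1, Ppid and Ptges3 are cochaperones of HSP90. The values of St13 did not overlap between the groups (log2 fold change -0.22 ± 0.07 SE, exact permutation p = 0.00794). Values of E lay all below those of NE for 0.289% of all genes tested. Heat shock factor 1 itself, Hsf1, was at 6.45 ± 0.98 and 6.63 ± 0.66 (log2 fold change -0.04), and Bag3, a gene it is known to raise, at 29.2 ± 1.28 and 32.6 ± 5.20 (-0.16), each within the spread.

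None of the 8 prefoldin and phosducin-like genes, which bring clients to CCT, and none of 4 nucleotide exchange factors of the endoplasmic reticulum and mitochondria had an unadjusted p of at most 0.05, and the medians were -0.04 and -0.04. Of 13 immediate early genes, which respond within minutes to growth signals or stress, 7 were higher in E at that threshold and 0 were lower (median log2 fold change 0.39). Over all genes tested, 2.57% were higher and 2.29% lower. Among these 7, Fos was at 21.1 ± 5.04 (SD, n = 5) and 14.5 ± 1.39 normalised FPKM, and Egr2 at 6.18 ± 0.600 and 4.57 ± 0.488. Egr2 had no overlap, with E all above NE, as had 0.436% of all genes tested. The other 6 did not pass, with Atf3 and Nr4a1 at negative values of -0.22 and -0.04. Cell cycle genes had no member of 7 at the threshold, with a median of -0.05. Of 6 epithelial markers, 4 were tested and 2 were lower in E at the threshold, against 2.29% of all genes tested. The 2 were Krt19 (6.17 ± 1.57 and 9.72 ± 2.16) and Epcam (0.387 ± 0.114 and 0.782 ± 0.431), while Cdh1 and Cldn7 gave log2 fold changes of 0.16 and 0.08. The part of these genes in the lower chaperone levels was not tested.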

How the data were processed

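RNA of 10 tumors was sequenced by the authors from paired-end TruSeq libraries. According to the methods, Hisat2 2.0 served for alignment and Stringtie 1.3.0 for expression. The methods name the rat assembly Rnor 6.0, whereas the table holds mouse Ensembl identifiers, and its build is not named. For each gene, the authors deposited whole-number counts and FPKM values of every tumor. How the counts were made, and whether strand was used, is not given in the sources used here. The deposited FPKM hold no TMM factor, and were divided by it here (factors from 0.951 to 1.02).

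Groups and replicate numbers came from the sample titles. The counts were tested over all genes in R 4.3.3 with edgeR 4.0.16 (quasi-likelihood test of glmQLFit, after TMM and filterByExpr, with p adjusted by Benjamini-Hochberg). A positive log2 fold change means a higher level in E. Calls needed a fold change of 2 or more with an FDR up to 0.05, the thresholds of the study. The test was checked on simulated data. Single values were compared with exact two-sided permutation tests of log2(CPM + 1), with every split into 5 and 5 tumors enumerated (scipy 1.17.1, Python 3.11.15), and correlations with 100000 permutations.

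The alternatives were DESeq2 1.42.0, limma-trend on log2(FPKM + 1) (limma 3.58.1), scaling by library size alone, testing all genes with a read, testing only genes with 10 counts or more in each tumor, a block for the replicate number, the skeletal muscle score as a covariate and leaving out 1 tumor at a time. Depth (log2 total count) as a covariate was added after seeing the data. The genes, the lists and the tests were chosen with earlier results of these data known.

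Genes were named for an unadjusted p of at most 0.05, for groups without overlap, as members of the heat shock set of 11 genes, for the 5 highest levels and the 5 largest spreads, and as CCT or small heat shock protein genes. In the pathway lists, genes at an unadjusted p of at most 0.05 were named. Other genes were named after their values were seen or to describe a family. Of the 83 genes, 1 is counted in the totals but is not reported here. Stretches of 50 bases were counted in the GENCODE vM21 transcripts of GRCm38, in which all 83 genes were found by identifier, 82 with a protein-coding transcript. The table gives 3 of the 83 genes the start and end they have in GRCm38, so shared stretches and overlaps describe that annotation and not necessarily the one the authors counted with. With 15045613 to 23092251 counted reads per tumor, 70 of the 83 genes had at least 10 reads in every tumor.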

Additional observations from a re-analysis of the deposited data

Results flagged for a closer look

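Among the values of single genes in 68 groups of 5 tumors, 9 lay so far from the other 4 of their group that the gap exceeded 0.71 of the range. The genes screened included the 5 named for the largest spreads, so that no number expected from chance applies. In NE4 the flagged values were the normalised FPKM of Hspa8 (1081), Hspb8 (90.0), Hspb6 (68.5), Hspb7 (21.9), Dnajb5 (9.38), Hspa12a (2.21) and Dnajc28 (1.85), each the highest of NE. NE4 also had the highest skeletal muscle score, 9.81, and the part of muscle in these values was not tested except for the relations of the small heat shock proteins to the score given above. In E1 they were Cct3 (73.7) and Cct7 (49.4), each the highest of E, and within or above the range of NE.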

How the results depend on the processing

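No gene was called in the 18 alternatives. The median log2 fold change of the chaperone genes stayed between -0.14 and -0.07. The number of chaperone genes at an unadjusted p of at most 0.05, 19 in the report, was 11 by limma-trend on log2(FPKM + 1) and 11 with the library size without TMM (in each 10 lower and 1 higher in E), 2 with depth (log2 total count) as a covariate, and 7 to 23 when 1 tumor was left out. It was 21 by DESeq2, 16 without a filter on low counts, 19 with at least 10 counts in every tumor and 23 with the skeletal muscle score (21 lower and 2 higher in E). In the fit with the replicate block it was 13. The share of all genes lower in E at that threshold also moved with the fit. It was 0.429% with depth, 2.29% in the report and 3.23% with the muscle score. For the fits without E5, NE2, E2 or NE3 it is given above, and for the other fits it is not given here. Of the chaperone genes tested, 2.74% were lower in E with depth (2 genes), 26.0% in the report and 28.8% with the muscle score. In each of these fits that was above the share of all genes. For the fits without a share, the numbers alone do not tell a change among the chaperone genes from a change over all genes. The deviations of equally numbered tumors correlated at -0.32 to 0.32, which gave no sign that the numbers pair the tumors, and the study speaks of matched pairs without saying what the tumors of a pair share.

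Of 33 named genes, 28 kept the sign of their log2 fold change. Hspb7 turned to 0.0462 by limma-trend, 0.43 with the replicate block, 0.23 with the muscle score and 0.0428 with the total count, and Hspb11 to 0.0200 with the total count. In the fits without 1 tumor, Hspb7 lay between -1.21 and 0.64, Hspb6 between -1.83 and 0.45 and Dnajb5 between -0.70 and 0.29, each positive only without NE4, and Cct6b between -0.0782 and 0.0659. The relation to the muscle score, which passed for 2 of 5 genes, passed for 4 without NE1 and for 1 without NE4. Without NE1, r was 0.887 for Hspb1 and 0.889 for Hspb8, and with log2(FPKM + 1) it was 0.745 for Hspb8. The r of Hspb1 was -0.343 without NE4, -0.083 without NE5 and -0.002 without E3. The causes were not tested.

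With 5 tumors a group, an exact permutation test cannot give less than p = 0.00794. Genes with processed copies (Hspa8, Hsp90aa1, Hspb1, Hspd1, Hspe1 and Dnaja1) and the pair of Hspa1a and Hspa1b have uncertain counts. The libraries of E were on average shallower than those of NE.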
